A study of Sus scrofa with 5 samples.

Results

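A population of day 6 porcine blastoid cells that hold transcripts of *PAX6* was examined, 1126 of 15544 cells. Blastoids are blastocyst-like structures built from stem cells. These were made from porcine embryonic stem cells in iBlastoid medium, which supplies BMP4, bFGF, activin A, LIF, IGF1 and IL-6 with its soluble receptor. It also holds the GSK3 inhibitor CHIR99021, the tankyrase inhibitor XAV939, the TGF-β receptor inhibitor SB431542, the ROCK inhibitor Y-27632, DZNep and TSA. By the study's methods the stem cells came from parthenogenetic blastocysts, and blastoids with a cavity were picked by hand and dissociated with trypsin before single-cell sequencing on the 10x Genomics platform. The 2 libraries, blastoid 1 and blastoid 2, are a single condition, so the comparisons are between cells and not between treatments. Nothing in the labels says that the libraries came from separate cultures, so p-values measure only the spread between these libraries, which may be technical.

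A barcode was taken as a cell with at least 11223 unique molecular identifiers (UMIs, each a counted transcript) in library 1 or 9805 in library 2. This gave 7369 and 8175 cells with a median of 29728 and 27588 UMIs, and 9 barcodes were shared between the libraries. A *PAX6* cell had at least 2 *PAX6* UMIs and stayed below 6 limits that mark other populations, namely 5 UMIs of *POU5F1*, 4 of *TP63*, 10 of *GABRP*, 15 of *CRABP1*, 10 of *ISG15* and 4 of *THSD7B* plus *NEUROG1*. From these cells, at most 600 per library were kept by the highest summed *PAX6* and *KCNAB1* level in counts per 1000000 UMIs (CPM). Library 1 had 526 such cells, all of which were taken, 7.14% of its cells (exact binomial 95% interval 6.56 to 7.75, counting error only). Library 2 had 667, of which 600 were taken, 7.34% of its cells. That share was set by the limit of 600, so it has no interval and is not comparable with library 1. The 67 cells left out were a further 0.82% of library 2. The last cell taken in library 2 had a summed level of 80.4 CPM and the first one left out had 79.9 CPM, while the lowest in library 1 had 23.8 CPM. The lower bound of 2 UMIs lay where cells were many. Exactly 2 *PAX6* UMIs were held by 123 *PAX6* cells in library 1 and 83 in library 2, and a further 229 and 315 cells met every other limit with 1.

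*PAX6* encodes a paired-box and homeobox transcription factor known for its part in the eye, where it acts in the lens placode, the surface ectoderm beside it and the optic cup. Cranial placodes are thickenings of head ectoderm that give rise to the lens, the nasal and otic epithelia, the anterior pituitary and many cranial sensory neurons. They arise from a shared preplacodal field that is defined by SIX4 and EYA proteins among others within non-neural ectoderm that expresses TFAP2, GATA and DLX factors. KCNAB1 is a cytoplasmic beta subunit of voltage-gated potassium channels.

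*PAX6* lies on chromosome 2 (susScr11, 28971565 to 29001149, plus strand). It chose the cells, so its level is a description. The gene stood at 174 CPM in library 1 and 201 CPM in library 2, against 9.76 and 10.2 CPM in all other cells and a mean of 11.5 CPM in empty droplets of 10 to 100 UMIs. The single cells ranged widely, from 23.8 CPM over a median of 142 to 880 CPM in library 1, and from 21 over 169 to 867 CPM in library 2.

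*KCNAB1* (chromosome 13, 95981820 to 96375089, plus strand) was at 38.5 and 50.1 CPM, against 20.8 and 23.3 CPM in all other cells. No *KCNAB1* UMI was detected in 344 *PAX6* cells of library 1 (65.4%) and 388 of library 2 (64.7%), which at this level and depth does not show that they lack the transcript. After every cell had been thinned to 9805 UMIs, 19.0% of *PAX6* cells in library 1 and 22% in library 2 held a *KCNAB1* UMI, compared with 9.19% and 9.70% of all other cells, with 3.13% and 3.89% of *POU5F1* cells, in which its CPM was lowest, and with 4.78% and 4.79% of *CRABP1*-high cells. Without thinning the shares among *PAX6* cells were 34.6% and 35.3%. In library 1 no cell was left out by the ranking, so there *KCNAB1* had no part in the choice. The genes with an upper limit were low by construction. *POU5F1*, a pluripotency factor, was at 15.2 and 17.8 CPM against 67.2 and 102 CPM, and *TP63*, a factor of stratified epithelium, at 8.36 and 8.59 CPM against 89.6 and 72.0 CPM.

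**Figure D1:**
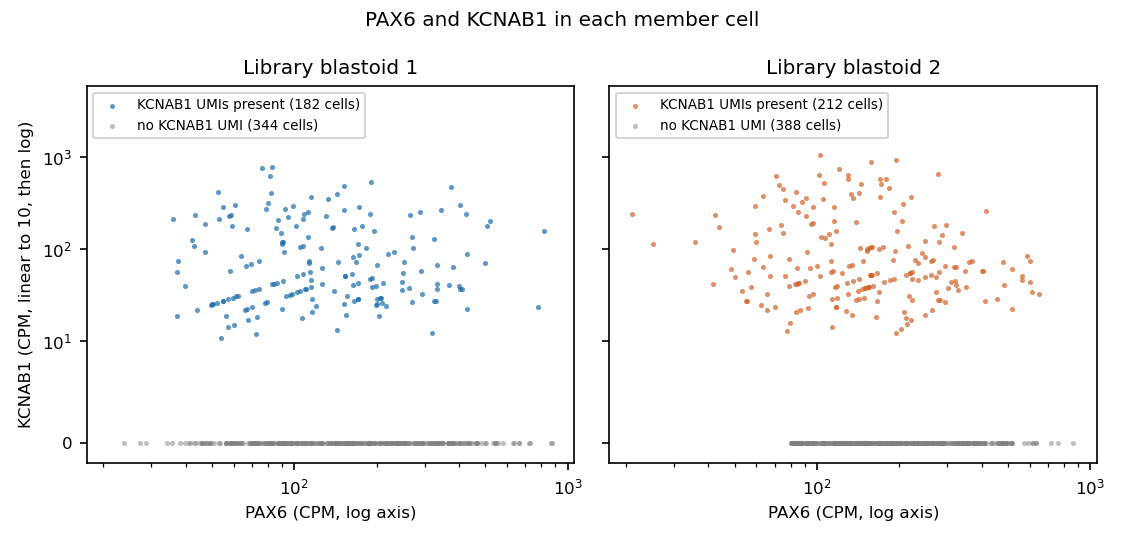
Each point is 1 of the *PAX6* cells, with its *PAX6* level (x axis, CPM, log scale) and its *KCNAB1* level (y axis, CPM, linear to 10 and log above) in library 1 (left, 526 cells) and library 2 (right, 600 cells). The row of grey points at 0 holds the 344 and 388 cells with no *KCNAB1* UMI, and in library 2 it begins at about 80 CPM of *PAX6*, where the limit of 600 cells fell.

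The name placode-like was checked against the factors of the preplacodal field, and these fit in part. *EYA2* was present in most *PAX6* cells and *EYA1* and *IRX1* were higher than in all other cells. Among the *PAX6* cells, however, *IRX1* fell as *PAX6* rose, as given below. *SIX4* was at 13.4 and 13.6 CPM, close to the 12.7 and 12.6 CPM of all other cells, and *EYA4* and *FOXI3* stayed under 2 CPM. The cells are therefore called *PAX6* cells here.

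UMIs were summed per library over the *PAX6* cells and over all other cells, and the sums were compared with the quasi-likelihood test of edgeR with Benjamini-Hochberg adjustment over all genes. The cells were picked by expression in these same libraries, so the test says how a difference compares with the spread between libraries and is no independent evidence for a population. Cells above the limits of the rule were kept out of the *PAX6* cells and left among all other cells. Genes that go with a limit gene can therefore be lower in *PAX6* cells through the choice alone. Of 20029 genes, 4192 (20.9%) passed at an adjusted p under 0.05, with 1716 (8.57%) higher and 2476 (12.4%) lower in *PAX6* cells. With the library as a block, 6685 genes (33.4%) passed, 3052 (15.2%) higher and 3633 (18.1%) lower. *PAX6* cells were slightly deeper than the rest, at a median of 32626 and 28721.5 UMIs against 29499 and 27463, and 19 and 18 of them were among the cells with the highest doublet scores, 3.61% and 3%, against 5.89% and 6.54% of all cells.

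The 15 genes with the highest fold change, apart from the genes of the rule and among those at 50 CPM or more, included the cofactor gene *EYA2*, the adhesion gene *NRXN3* and the guidance genes *DCC* and *SEMA3A*. They rose between 3.29-fold and 6.89-fold, with adjusted p-values from edgeR between 2.56e-06 and 0.000271. *EYA2*, which encodes a transcriptional cofactor with phosphatase activity (chromosome 17, 48930682 to 49243789), was at 182 and 189 CPM in the libraries, against 25.9 and 26.9 CPM in all other cells, a log2 fold change of 2.78 ± 0.054 (SE, 4 sums). After thinning, 71.3% and 73.3% of *PAX6* cells held an *EYA2* UMI (89.9% and 90.3% without thinning), against 5.04% and 5.25% of *GABRP*-high cells. For this gene, *SIX3* and *SOX2* the shares are set against *GABRP*-high cells as a class chosen for its low level. *EYA2* was not highest in *PAX6* cells, since cells above the limit for *THSD7B* and *NEUROG1* averaged 502 CPM.

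*NRXN3*, a presynaptic adhesion protein, was at 163 and 195 CPM against 28.2 and 29.9 CPM (log2 fold change 2.59 ± 0.093, SE). *DCC*, a receptor for netrin, was at 149 and 175 CPM against 30.8 and 40.7 CPM, with a still higher mean of 345 CPM in *CRABP1*-high cells. *SEMA3A*, a secreted axon repellent, was at 74.0 and 89.5 CPM against 20.4 and 20.5 CPM. In each of these genes both sums of *PAX6* cells lay above both sums of the other cells. *CNTN4*, an adhesion molecule of the contactin family, and *SGIP1*, an adaptor of endocytosis, followed the same pattern, with log2 fold changes of 1.86 ± 0.092 and 1.77 ± 0.096 (SE).

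*SHISA2*, whose product holds back FGF and WNT receptors in the endoplasmic reticulum, was at 93.9 and 84.7 CPM against 15.9 and 18.1 CPM (log2 fold change 2.36 ± 0.084, SE). *HPSE2*, a relative of heparanase, was at 96.1 and 85.7 CPM against 19.8 and 17.2 CPM. *MITF*, a transcription factor known from pigment cells and the retinal pigment epithelium, was at 54.6 and 64.8 CPM against 17.9 and 16.5 CPM. *LMO3*, a LIM-only cofactor, was among the most abundant of the 15 at 187 and 191 CPM against 43.3 and 51.1 CPM. The remaining genes were *ARHGEF28*, *COL25A1*, *INPP4B*, *LOC106509534* and *ELP4*.

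These genes were long. Their annotated loci span a median of 410 kb (5.87 to 1647 kb), compared with 65.1 kb for all genes that were higher, 30.7 kb for all genes that were lower and 25.2 kb for all genes tested. Whether reads from introns were counted is not given in the sources used here, and the part of gene length in the fold changes was not tested.

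*ELP4*, a subunit of the Elongator complex, is the neighbour of *PAX6*. It lies on chromosome 2 from 29006456 to 29230092 on the minus strand, 5307 bp beyond the 3′ end of *PAX6* and tail to tail with it. Introns of *ELP4* are known to carry enhancers of *PAX6* in other mammals. It was at 271 and 256 CPM against 81.1 and 76.0 CPM (log2 fold change 1.72 ± 0.052, SE, adjusted p = 1.23e-05 by edgeR), more than its mean of 128 CPM in *CRABP1*-high cells, which came next. Other neighbours, picked by position after their values were seen, were also higher, by less. *RCN1*, 257482 bp before *PAX6*, was at 98.9 and 97.5 CPM against 52.8 and 48.7 CPM. *DNAJC24* had a log2 fold change of 0.76 ± 0.074 and *IMMP1L*, the gene after *ELP4*, one of 0.33 ± 0.053 (SE). The annotated ends of *IMMP1L* and *DNAJC24* overlap, so reads there could belong to either.

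**Figure D2:**
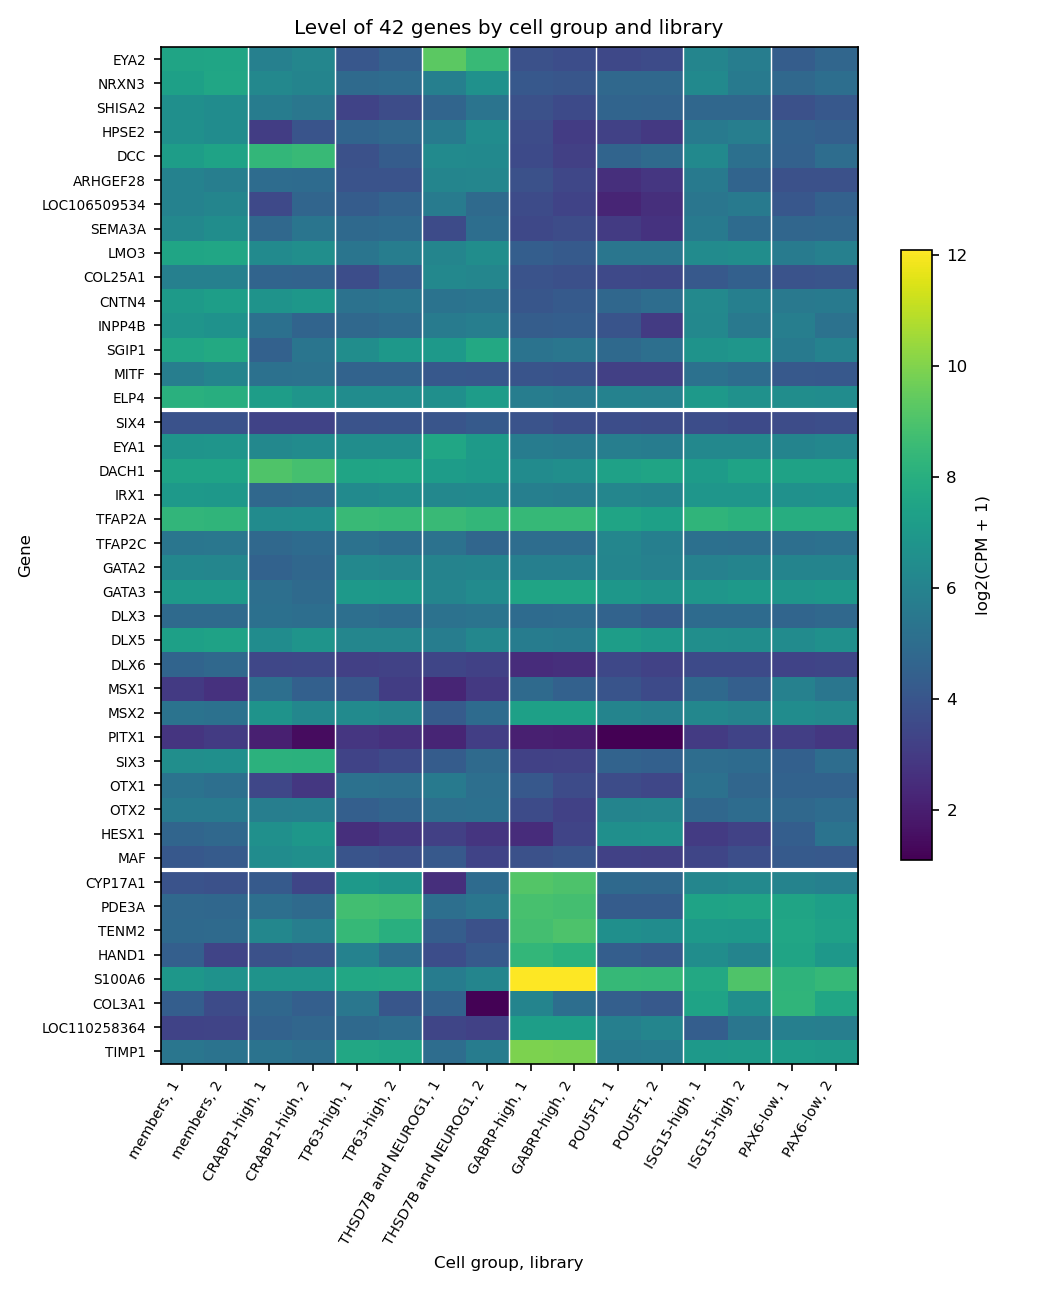
Rows are 42 genes, with the 15 highest in *PAX6* cells above the first white line, 19 further genes of the placode and ectoderm lists in the middle and the 8 lowest genes below the second. Columns are cell groups in library 1 and library 2 ("members" are the *PAX6* cells), and colour is log2(CPM + 1) of the summed UMIs, which shows *EYA2* brightest in the *THSD7B* and *NEUROG1* cells, *SIX3* and *DCC* brightest in *CRABP1*-high cells and *S100A6* brightest in *GABRP*-high cells.

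Each count of a list against all other cells is to be read beside the shares of all genes tested, which were 8.57% higher and 12.4% lower, or 15.2% and 18.1% with the library as a block. Among 8 preplacodal regulators, 4 were higher in *PAX6* cells and none lower, and the median log2 fold change was 0.34, against 0.00 over all genes tested. Besides *EYA2*, *EYA1* was at 110 and 114 CPM against 70.6 and 70.0 CPM (log2 fold change 0.64 ± 0.048, SE). *IRX1*, an Iroquois homeobox factor, was at 128 and 122 CPM against 79.1 and 80.6 CPM (0.62 ± 0.047). *DACH1*, a partner of EYA proteins, was at 176 CPM in both libraries and at 164 and 172 CPM in all other cells, which did not pass. The counts for this list depended on the cells compared. Against *THSD7B* and *NEUROG1* cells 1 was higher and 4 lower (5.24% and 6.9% of all genes), with a median of -0.77. Against *CRABP1*-high cells 5 were higher and 1 lower (14% and 14.7%), and against *TP63*-high cells 5 were higher and none lower (9.7% and 12.2%).

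The non-neural ectoderm factors were present, and most did not pass against the rest of the blastoid cells. The study took 2 of them, *GATA2* and *GATA3*, as its markers of trophectoderm-like cells. Their presence therefore does not tell non-neural ectoderm from trophectoderm-like cells. Of 9, 2 were higher and 2 lower, and with the library as a block 4 were higher and 2 lower. *GATA3* was at 129 and 127 CPM in *PAX6* cells and at 132 and 124 CPM in all other cells. *TFAP2A* was at 320 and 307 CPM against 285 and 260 CPM (edgeR adjusted p = 0.0641, and 0.00175 with the library as a block), and *GATA2* at 72.7 and 69.9 CPM against 63.2 and 60.6 CPM (0.0527, and 0.006 with the block). The distal-less pair that shares a locus moved up together. *DLX5* was at 163 and 170 CPM against 84.0 and 89.0 CPM (log2 fold change 0.91 ± 0.054, SE), and *DLX6* at 23.6 and 26.9 CPM against 8.35 and 8.74 CPM (1.53 ± 0.093). The BMP-responsive factors *MSX1* and *MSX2* fell. *MSX1* was at 6.91 and 5.27 CPM against 33.4 and 22.6 CPM (log2 fold change -2.23 ± 0.23, SE), and *MSX2* at 37.4 and 36.0 CPM against 97.0 and 83.4 CPM (-1.33 ± 0.081).

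Of 16 anterior placode factors 6 were higher and 1 lower (7 and 2 with the library as a block), beside 8.57% and 12.4% of all genes (15.2% and 18.1% with the block), with a median log2 fold change of 0.41. *SIX3*, a homeobox factor of the forebrain, lens and pituitary, was at 92.5 and 94.2 CPM against 24.9 and 34.4 CPM (log2 fold change 1.62 ± 0.14, SE, adjusted p = 0.000423 by edgeR). After thinning, 48.9% and 51.5% of *PAX6* cells held a *SIX3* UMI (75.9% and 75.8% without thinning), against 3.02% and 3.6% of *GABRP*-high cells. *CRABP1*-high cells held more, with a *SIX3* UMI in 67.0% and 75% after thinning and a mean of 280 CPM. *OTX1* and *OTX2* were higher by 0.72 ± 0.091 and 0.52 ± 0.10 (log2, SE). *FOXE3*, a lens regulator, passed at only 1.45 and 2.40 CPM. This list too depended on the cells compared, with 15 of its factors tested against each population. Against *CRABP1*-high cells 5 were higher and 7 lower (14% and 14.7% of all genes), with a median of -0.79. Against *TP63*-high cells 8 were higher and none lower (9.7% and 12.2%), and against *THSD7B* and *NEUROG1* cells 3 were higher and 2 lower (5.24% and 6.9%).

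Other anterior markers were absent or not raised. *SOX3*, *SP8*, *LHX3* and *PITX3* stayed under 1 CPM in both libraries, and *SIX6* was lower, at 0.589 and 1.43 CPM. *HESX1*, a repressor of the early forebrain and pituitary, was at 24.8 and 27.3 CPM against 28.1 and 44.5 CPM, which did not pass (adjusted p = 0.145 by edgeR, and 0.00188 with the library as a block).

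Genes of differentiated lens were near 0. Of 13 lens structural genes, 11 stood under 1 CPM as the mean of the libraries and 2 had no UMI in any *PAX6* cell. None of the 11 that could be tested was higher and 2 were lower. *CRYAB*, a small heat shock crystallin that many tissues express, was at 5.62 and 7.05 CPM against 6.97 and 6.29 CPM. The corneal keratins *KRT3* and *KRT12* were at 0 and at 0.0536 and 0.102 CPM, and of 4 corneal epithelium genes tested 2 were lower and none higher. Of 10 sensory neuron genes tested, 1 was higher and 6 lower against all other cells. These keep the *THSD7B* and *NEUROG1* cells that the rule set apart, so lower levels can follow from the choice. Against those cells none was higher and 9 lower (5.24% and 6.9% of all genes). The counts were 3 higher and 1 lower against *CRABP1*-high cells (14% and 14.7%), and 3 higher and 2 lower against *TP63*-high cells (9.7% and 12.2%). *NEUROD1* had 3 and 1 UMIs in all *PAX6* cells of the libraries, while *STMN2*, a tubulin-binding protein of neurons that other blastoid cells also hold, was at 107 and 91.7 CPM against 75.6 and 83.5 CPM (log2 fold change 0.29 ± 0.081, SE).

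Of 6 posterior placode factors tested 2 were higher and 3 lower. *PAX3*, a factor of the trigeminal placode and the neural crest, was at 18.5 and 19.3 CPM against 6.94 and 9.33 CPM (log2 fold change 1.19 ± 0.15, SE), and the mean in *CRABP1*-high cells was higher at 107 CPM. *PAX2* was at 1.12 and 0.613 CPM.

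**Figure D3:**
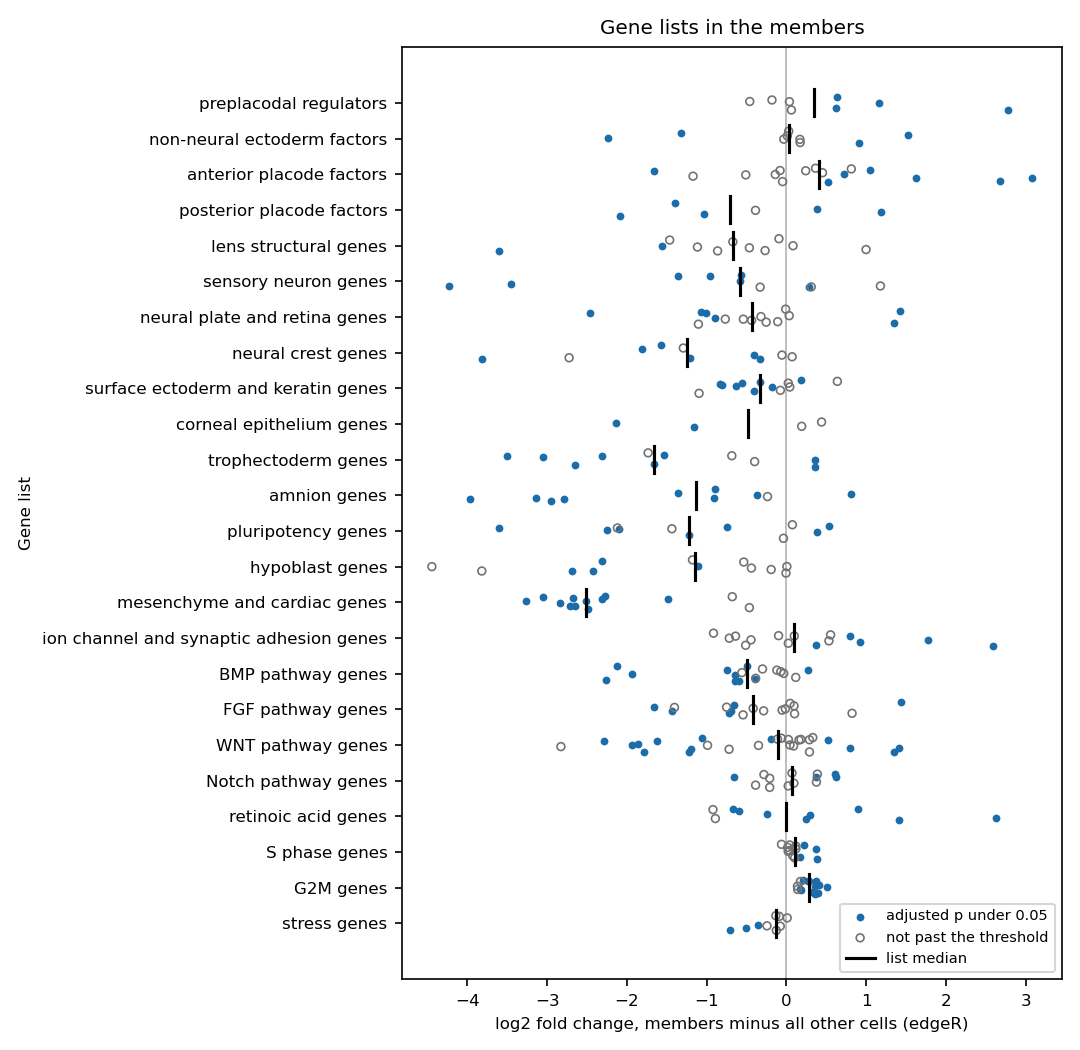
Each point is 1 gene of a list, placed by its log2 fold change between *PAX6* cells ("members") and all other cells. Filled points passed an edgeR adjusted p of 0.05, open points did not, and the black bar is the median of the list, which lies furthest to the left for the mesenchyme and cardiac genes at -2.52.

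Markers of the other populations that a blastoid can hold were mostly lower. Cells above the limits of the rule stayed among all other cells, so lower levels of their markers can follow from the choice of cells. The same holds for the lowest genes in the next paragraph, and how much of it does was not tested. Of 13 mesenchyme and cardiac genes 11 were lower and none higher, with a median log2 fold change of -2.52 and a summed level of 144 and 134 CPM against 880 and 518 CPM in all other cells. Each of these 13 genes was above 1 CPM in *PAX6* cells as the mean of the libraries. Their sum in empty droplets was 745 and 478 CPM, above that in *PAX6* cells, so these levels do not show expression by the cells. Of 10 amnion genes 8 were lower and 1, *HEY1*, was higher, and their sum was 322 and 311 CPM against 1461 and 1331 CPM. Of 11 trophectoderm genes 6 were lower and 2, *DAB2* and *PTGS2*, higher, with *CDX2* at 0.214 and 0.102 CPM and a sum of 243 CPM in both libraries against 629 and 547 CPM. This list does not hold *GATA2*, *GATA3* and *KRT8*, which the study counts as trophectoderm genes and which are given under other lists here. Hypoblast genes were lower in 4 of 12 and higher in none (7 lower with the library as a block), and 7 of the 12 were under 1 CPM, with a sum of 124 and 114 CPM against 265 and 257 CPM. Among 11 pluripotency genes 5 were lower and 2, *SALL4* and *LIN28B*, higher, with *NANOG* at 0.321 and 0.460 CPM and a sum of 308 and 307 CPM against 306 and 366 CPM. Sums in empty droplets were also above those in *PAX6* cells for amnion (1752 and 1678 CPM), trophectoderm (637 and 526) and hypoblast genes (346 and 341). For pluripotency genes they were below, at 245 and 278 CPM. The part of stray transcripts and of these other cell types in the results was not tested.

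The 8 genes with the lowest fold change were *CYP17A1*, *PDE3A*, *TENM2*, *HAND1*, *S100A6*, *COL3A1*, *LOC110258364* and *TIMP1*, all at 50 CPM or more in the other cells. *CYP17A1*, an enzyme of steroid synthesis, was at 14.2 and 13.2 CPM against 171 and 132 CPM (log2 fold change -3.50 ± 0.14, SE). *HAND1*, a factor of trophoblast, extraembryonic mesoderm and heart, was at 20.2 and 9.05 CPM against 141 and 94.6 CPM. *S100A6*, a calcium-binding protein, was at 119 and 103 CPM against 867 and 811 CPM, and its mean in *GABRP*-high cells was 4330 CPM.

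Of 15 neural plate and retina genes 2 were higher, *FABP7* and *HES5*, and 4 were lower, beside 8.57% and 12.4% of all genes. The counts depended on the cells compared. They were 9 higher and 1 lower against *TP63*-high cells (9.7% and 12.2% of all genes), none higher and 13 lower against *CRABP1*-high cells (14% and 14.7%), and 4 higher and 4 lower against *THSD7B* and *NEUROG1* cells (5.24% and 6.9%). *SOX2*, which marks pluripotent cells, neural plate and placodes, was at 31.2 and 36.8 CPM against 28.6 and 38.4 CPM, well below the means of 84.2 CPM in *POU5F1* cells and 81.6 CPM in *CRABP1*-high cells. After thinning, 26.8% and 28.5% of *PAX6* cells held a *SOX2* UMI (56.5% and 58.0% without thinning), against 6.19% and 6.30% of *GABRP*-high cells. That gap is to a class chosen for its low level. Against all other cells, *SOX2* CPM was higher in library 1 and lower in library 2. The retinal and forebrain factors *LHX2* and *RAX* were at 7.87 and 9.15 CPM and at 2.57 and 1.89 CPM, against means of 247 and 30.8 CPM in *CRABP1*-high cells. Of 10 neural crest genes 6 were lower and none higher, and *SOX10* and *FOXD3* were under 0.5 CPM. Of 13 surface ectoderm and keratin genes 7 were lower and 1, *GRHL2*, higher. *KRT8* was at 3227 and 3098 CPM against 5024 and 4595 CPM, and *KRT5* at 0.214 and 0.153 CPM.

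Of 15 ion channel and synaptic adhesion genes 5 were higher and none lower. Among the 5 were *NRXN3*, *SGIP1*, *NLGN1* and *KCNQ1*, and *NLGN1*, a postsynaptic partner of neurexins, was at 65.2 and 71.1 CPM against 35.8 and 34.7 CPM (log2 fold change 0.92 ± 0.063, SE). The pore-forming Kv1 subunits to which KCNAB1 binds, *KCNA1*, *KCNA2*, *KCNA4* and *KCNA5*, were each under 1 CPM in both libraries, and the related beta subunits *KCNAB2* and *KCNAB3* did not pass.

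Signalling genes were described by pathway. Of 17 BMP pathway genes 9 were lower and 1, *ID3*, higher. The ligand *BMP4* was at 13.0 and 10.3 CPM against 49.5 and 37.3 CPM (log2 fold change -1.93 ± 0.16, SE). The BMP targets *ID1* and *ID2* fell by 0.75 and 0.60 on the log2 scale, at 225 and 195 CPM against 350 and 342 CPM for *ID1*, while *ID3* was at 307 and 292 CPM against 245 and 240 CPM. The receptor *BMPR1B* was lower (-0.65 ± 0.059, SE), and *BMPR1A* was at 160 and 152 CPM against 156 and 157 CPM.

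In the retinoic acid list 5 of 10 genes were higher and 3 lower. *ALDH1A1*, a synthesis enzyme known from the dorsal retina and lens, was at 32.9 and 44.0 CPM against 13.8 and 14.5 CPM (log2 fold change 1.41 ± 0.13, SE), and *ALDH1A3* passed at 1.18 and 1.99 CPM. *CYP26A1*, which breaks retinoic acid down, was higher too, at 176 and 193 CPM against 85.3 and 109 CPM (0.89 ± 0.12), with a mean of 267 CPM in *POU5F1* cells. The binding protein *CRABP2* was lower, at 108 and 109 CPM against 177 and 163 CPM.

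Of 27 WNT pathway genes 4 were higher and 9 lower, and 7 were higher and 11 lower with the library as a block, beside 8.57% and 12.4% of all genes (15.2% and 18.1% with the block). The ligand *WNT5B* was at 42.4 and 40.7 CPM against 18.5 and 13.6 CPM and the secreted antagonist *SFRP2* at 28.8 and 38.4 CPM against 10.5 and 14.3 CPM, with log2 fold changes of 1.34 ± 0.14 and 1.41 ± 0.18 (SE). The ligand *WNT6* fell, at 29.1 and 26.9 CPM against 112 and 98.2 CPM. Of 17 FGF pathway genes 1 was higher and 5 lower (2 and 9 with the block), so the share higher was not above that of all genes. Higher without the block was the ligand *FGF10*, at 18.2 and 16.7 CPM against 6.67 and 5.94 CPM (1.44 ± 0.10), while *FGF8* was at 4.87 and 5.06 CPM against 14.1 and 16.8 CPM. In the Notch list 3 of 13 were higher and 1 lower (4 and 2 with the block), with *LFNG* at 17.0 and 16.8 CPM against 9.82 and 11.7 CPM.

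Proliferation genes were slightly higher. Of 15 genes of the G2 and M phases 12 were higher and none lower, with a median log2 fold change of 0.28, and of 13 S phase genes 4 were higher and none lower. *TOP2A* was at 247 and 250 CPM against 180 and 185 CPM (log2 fold change 0.41 ± 0.045, SE). Of 9 stress genes 3 were lower and none higher (6 lower with the library as a block).

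*PAX6* cells were then compared with 3 populations that the limits of the rule set apart, each cell crossing exactly 1 limit, in 1 fit over 17 sums. These were 230 and 376 *CRABP1*-high cells, 959 and 829 *TP63*-high cells and 65 and 64 *THSD7B* and *NEUROG1* cells. All of these contrasts use the sums of the same *PAX6* cells.

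Against *CRABP1*-high cells, 5504 of 19184 genes (28.7%) passed in edgeR, 2692 (14%) higher and 2812 (14.7%) lower in *PAX6* cells, and with plain CPM scaling in place of TMM the split was 1877 higher and 3694 lower. *HPSE2*, *POU3F2*, *PLA2G4A*, *SGIP1* and *CXCL12* had the highest fold changes. *POU3F2*, a POU-domain factor, was at 75.2 and 70.3 CPM against 10.3 and 10.5 CPM (log2 fold change 2.91 ± 0.093, SE, adjusted p = 4.76e-12 by edgeR). *CXCL12*, a chemokine, was at 236 CPM in both libraries against 36.2 and 53.3 CPM. At the other end stood *CRYBA2*, *SPP1*, *SIX6*, *LOC100514051* and *CDH6*. *CDH6*, a cadherin, was at 7.77 and 7.11 CPM against 367 and 362 CPM (-5.51 ± 0.16), and *SIX6*, an eye-field factor, at 0.589 and 1.43 CPM against 71.4 and 70.7 CPM. At least 2 *PAX6* UMIs were held by 24.3% and 22.3% of *CRABP1*-high cells, by 29.2% and 32.8% of *THSD7B* and *NEUROG1* cells and by 26.7% and 14.6% of *ISG15*-high cells, against 3.74% and 2.70% of *GABRP*-high cells, so *PAX6* transcripts were not limited to the *PAX6* cells.

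Against *TP63*-high cells, 4196 of 19184 genes (21.9%) passed, 1861 (9.7%) higher and 2335 (12.2%) lower, and with plain CPM scaling 2579 higher and 1924 lower. *DCC*, *EYA2*, *SIX3*, *SHISA2* and *NRXN3* were highest, all of them also named above. *SIX3* was at 8.80 and 10.8 CPM in *TP63*-high cells (log2 fold change 3.20 ± 0.16, SE) and *SHISA2* at 8.83 and 11.4 CPM. *PDE3A*, *TENM2*, *CYP17A1*, *SULF1* and *SNAP91* were lowest. *PDE3A*, a cyclic nucleotide phosphodiesterase, was at 27.0 and 25.9 CPM in *PAX6* cells against 429 and 407 CPM (-4.04 ± 0.083), and *SULF1*, a sulfatase of heparan sulfate, at 18.1 and 21.9 CPM against 183 and 128 CPM.

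Against *THSD7B* and *NEUROG1* cells, 2329 of 19184 genes (12.1%) passed, 1005 (5.24%) higher and 1324 (6.9%) lower. The split was 1431 higher and 1172 lower with plain CPM scaling and 791 higher and 1651 lower in DESeq2. *EDIL3*, *SLIT2*, *EPHA7*, *CYP26A1* and *SIX3* were highest in *PAX6* cells. *SLIT2*, a secreted guidance cue, was at 104 and 128 CPM against 13.8 and 28.3 CPM (log2 fold change 2.39 ± 0.42, SE), and *EPHA7*, an ephrin receptor, at 52.7 and 58.8 CPM against 15.7 and 9.04 CPM. *NEUROD1*, *INSM1*, *GZMB*, *CALB2* and *WSCD1* were lowest. *INSM1*, a zinc-finger factor of newborn neurons, was at 0.107 and 0.204 CPM against 81.6 and 41.0 CPM, and *CALB2*, a calcium-binding protein of sensory neurons, at 1.07 and 0.613 CPM against 99.1 and 65.7 CPM. *EYA2* stood at a mean of 502 CPM and *EYA1* at 162 CPM in these cells, above *PAX6* cells in both genes.

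*PAX6* cells were not uniform. They were ranked by *PAX6* CPM within each library and divided into 3 parts of about equal size, with 175 or 176 cells in library 1 and 200 in library 2. From the lowest to the highest part, *EYA2* went from 101 over 176 to 287 CPM in library 1 and from 123 over 180 to 279 CPM in library 2. *MITF* went from 30.7 over 50.9 to 87.1 CPM and from 34.9 over 70.1 to 95 CPM. All 15 of the highest genes named above climbed from part to part in both libraries. These genes were chosen as high in cells picked by *PAX6*, and the parts were made from *PAX6*, so a climb was likely. The share of all genes that climbed was not counted.

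Other genes stayed level or fell. *GATA3* was at 136, 119 and 131 CPM and at 127, 126 and 128 CPM, and *TFAP2A* between 302 and 336 CPM throughout. *HESX1* went down, from 36.0 over 26.5 to 9.64 CPM and from 40.1 over 26.3 to 13.1 CPM. *IRX1* fell less, from 146 over 130 to 106 CPM and from 138 over 115 to 111 CPM. Within the *PAX6* cells *KCNAB1* also went down with *PAX6*, from 46.9 over 40.9 to 25.8 CPM in library 1. In library 2 it went from 78.1 over 45.4 to 21.5 CPM. There the ranking by the sum of both genes kept cells of low *PAX6* only if *KCNAB1* was high. The lowest part was also deeper, with a median of 36337 UMIs against 30720 and 30561 in library 1 and 31066.5 against 28358 and 27445 in library 2. The part of depth in these trends was not tested.

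**Figure D4:**
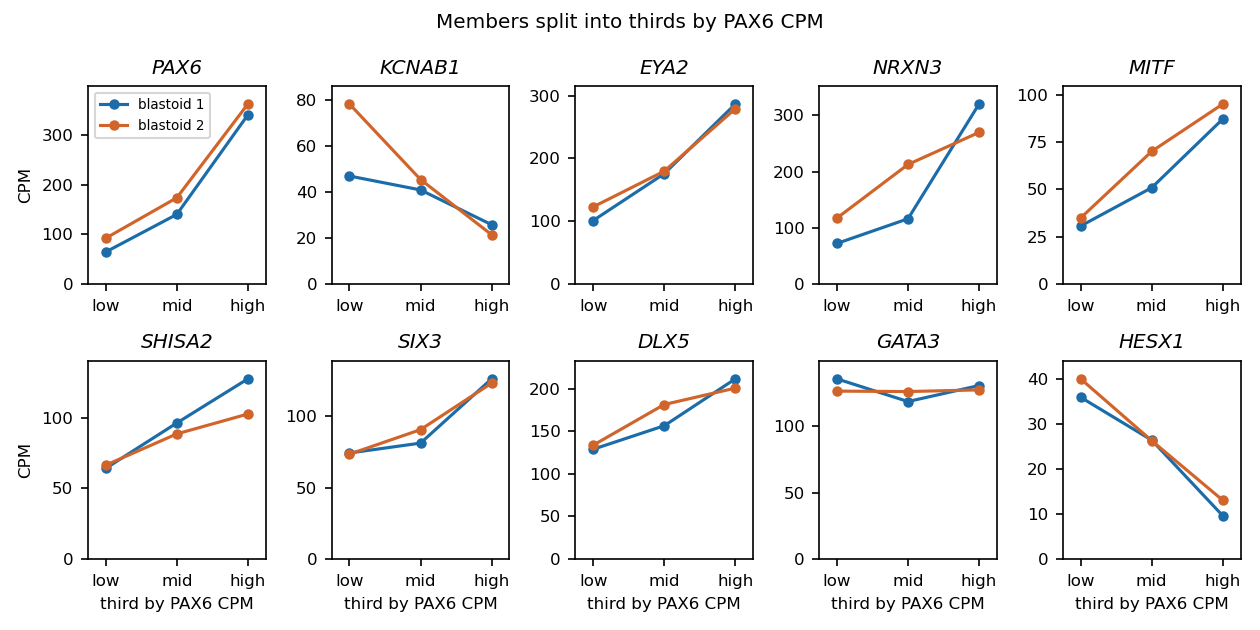
Summed level (y axis, CPM from 0) of 10 genes in the lowest, middle and highest part of the *PAX6* cells ranked by *PAX6* CPM (x axis), with blue for library 1 and orange for library 2. *EYA2*, *NRXN3*, *MITF*, *SHISA2*, *SIX3* and *DLX5* end higher than they begin in both libraries, *GATA3* stays between 119 and 136 CPM, and *KCNAB1* and *HESX1* fall.

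The same genes were read in cells below the lower bound of the rule. Cells with 1 *PAX6* UMI missed the rule by that bound only and may belong to the same population. The genes were chosen as high in *PAX6* cells, so higher levels with 1 UMI were likely from the choice and are no separate support. Among cells that crossed no limit and had fewer than 2 *PAX6* UMIs, 229 and 315 held 1 UMI and 2513 and 2701 held none. All 15 genes were higher with 1 UMI than with none in both libraries, with a median log2 ratio (2 CPM added to each level, as in all log2 ratios of this kind) of 0.94 in library 1 (0.10 to 1.49) and 0.89 in library 2 (0.51 to 1.54). *EYA2* was at 48.3 and 63.0 CPM with 1 *PAX6* UMI against 15.9 and 20.3 CPM with none. *SHISA2* was at 34.3 and 36.1 CPM against 11.0 and 13.7 CPM, and *ELP4* at 158 and 137 CPM against 81.9 and 80.2 CPM. *VIM*, a mesenchymal intermediate filament gene chosen here after its values were seen, went the other way, at 118 and 51.6 CPM against 330 and 217 CPM. *KCNAB1*, a gene of the rule, was higher with 1 *PAX6* UMI than with none, at 56.9 and 52.9 CPM against 23.8 and 28.3 CPM. Its fall with *PAX6* within the *PAX6* cells was therefore not seen at this step. Cells with 1 UMI were deeper, with a median of 30499 and 26540 UMIs against 26057 and 23688. These are descriptions without a test, since cells of 1 library are not replicates.

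*PAX6* cells with *KCNAB1* differed from those without it. The 74 and 89 cells with at least 3 *KCNAB1* UMIs, a bound chosen after the values were seen, were set against the 344 and 388 with none. The 14 genes that were higher by most in both libraries at 30 CPM or more were *FSTL5*, *TAL2*, *SHISA9*, *BRINP1*, *POU3F2*, *PRKCB*, *PRSS35*, *TMEM132D*, *CACNA2D3*, *ELAVL2*, *SRRM4*, *FGF12*, *SSX2IP* and *ME1*. *TAL2*, a basic helix-loop-helix factor, was at 136 and 112 CPM against 31.8 and 24.0 CPM. *POU3F2* was at 163 and 154 CPM against 49.8 and 47.2 CPM. *ELAVL2*, a neuronal RNA-binding protein, was at 143 and 133 CPM against 48.1 and 37.2 CPM.

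The 14 genes that were lower by most were *SELENOP*, *EDIL3*, *SEMA3A*, *SLIT2*, *DAB1*, *HAPLN1*, *ALDH1A1*, *DLG2*, *CDH7*, *CNTN4*, *VIM*, *SOX5*, *CRABP1* and *LEF1*. *SEMA3A* was at 27.3 and 25.9 CPM against 88.2 and 116 CPM. *ALDH1A1* was at 13.6 and 16.7 CPM against 37.3 and 50.6 CPM. The split uses a gene of the rule, and in library 2 the ranking kept cells of low *PAX6* only where *KCNAB1* was high. Cells with *KCNAB1* held less *PAX6*, at 151 and 146 CPM against 186 and 222 CPM, and the part of this in the other differences was not tested. *EYA2* and *SIX3*, which climbed with *PAX6*, were at 155 and 142 CPM against 190 and 212 CPM for *EYA2* and at 69.5 and 70.3 CPM against 95.9 and 100.3 CPM for *SIX3*. *TFAP2A* was at 376 and 379 CPM against 303 and 291 CPM, and *GATA2* was at 103 and 115 CPM against 62.8 and 57.3 CPM.

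The same split was read in *PAX6*-low cells, which share no cell with the population. There 191 and 240 cells had at least 3 *KCNAB1* UMIs and 2194 and 2411 had none. Unlike in *PAX6* cells, those with *KCNAB1* held more *PAX6*, at 5.49 and 6.67 CPM against 2.51 and 3.55 CPM. All 14 genes that were higher with *KCNAB1* in *PAX6* cells were higher in both libraries, with a median log2 ratio of 1.93 and 1.89. The median in *PAX6*-low cells was 0.055 and 0.031 over the 5344 genes at 30 CPM or more in *PAX6* cells with at least 3 *KCNAB1* UMIs. The share of all genes with the same sign in both populations was not counted. Of the 14 lower genes 13 were lower in both libraries, with a median of -0.87 and -1.13, and the exception was *DLG2* in library 1, at 98.1 CPM with *KCNAB1* and 76.3 CPM without. *KCNAB1* itself averaged 29.0 CPM in *PAX6*-low cells and 34.3 CPM in *TP63*-high cells, not far from the level in *PAX6* cells. Cells with *KCNAB1* were deeper in both populations, with 35226 and 33573 UMIs against 32172.5 and 27903 in *PAX6* cells and 29992 and 26482 against 25351.5 and 23394 in *PAX6*-low cells, and the part of depth was not tested.

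**Figure D5:**
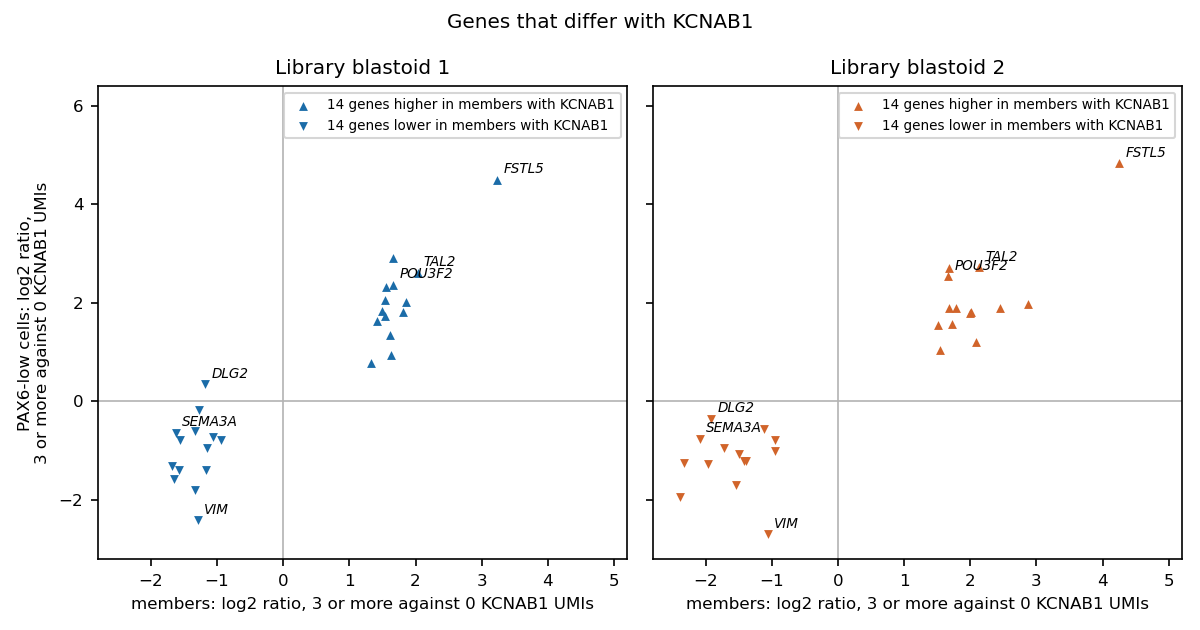
Log2 ratio between cells with at least 3 and with 0 *KCNAB1* UMIs, in *PAX6* cells ("members", x axis) and in *PAX6*-low cells (y axis), for 14 genes chosen as higher (upward triangles) and 14 as lower (downward triangles) in *PAX6* cells of both libraries. Library 1 is on the left and library 2 on the right, and every gene but *DLG2* in library 1 has the same sign on both axes.

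Co-detection within single cells was read after thinning to 9805 UMIs. Of *PAX6* cells with an *EYA2* UMI, 54.1% and 57.5% also held *NRXN3*, compared with 24.5% and 35.6% of those without *EYA2*. *LMO3* was found in 86.0% and 82.5% of *PAX6* cells with *SIX3* and in 69.9% and 74.2% of those without. *SIX3* was found in 51.5% and 54.1% of cells with *EYA2* and in 42.4% and 44.4% of those without. *EYA2* and *GATA3* were found together in 45.8% and 48.2% of all *PAX6* cells, and *GATA3* was about as frequent with *EYA2* (64.3% and 65.7%) as without it (68.9% and 59.4%). Depth was equal in these cells by thinning, but cells of 1 library are not replicates, so no test was made.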

How the data were processed

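UMI counts per gene and barcode of 2 blastoid libraries were used. The authors mapped reads to susScr11 and counted UMIs with Cell Ranger 7.1.0 after quality control, and the deposited counts are raw and hold all barcodes, empty droplets included. Seurat 4.3.0 is also named. The labels leave the kit version open. Of 30029 gene names, 29862 (99.4%) matched the RefSeq annotation of Sscrofa11.1 used for coordinates. The FPKM table of 3 bulk libraries of stem cells was not used here.

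Cells were called and chosen by the UMI limits stated in the results, with no filter on mitochondrial share. The population, the gene lists and the tests were chosen with earlier results of these data known, including a cluster led by *KCNAB1* and *PAX6*, so no pattern is independent support. Counts were summed per library and cell group, filtered with filterByExpr, scaled by TMM and compared in edgeR 4.0.16 (R 4.3.3) by quasi-likelihood F-tests, with Benjamini-Hochberg adjustment and a threshold of 0.05 (4 sums with 2 residual degrees of freedom, or 17 sums with 8). DESeq2 1.42.0 was an alternative. CPM are UMIs per 1000000 of the summed group.

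The 2 sums of a library come from 1 preparation. Across genes, deviations of such sums from their group means correlated at 0.190 for *PAX6* cells and all other cells and at 0.0913, 0.126 and 0.0625 for the class contrasts in the order given. An alternative fit used the library as a block, since it pairs the sums. On simulated counts for *PAX6* cells against all other cells (19767 genes), 45 of 50 genes changed 1.5-fold were recovered and all 50 each at 2-fold, 4-fold and 8-fold, and 6 of 19567 unchanged genes were called. The simulation gave every gene the same spread and the sums of a library no shared effect, and it changed only genes above 5 CPM. It therefore does not show how the test does on genes of wider spread or lower level.

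Genes named are the 9 of the rule as a description, the 15 highest and 8 lowest fold changes at 50 CPM or more, the genes of the preplacodal, non-neural ectoderm and anterior placode lists at 5 CPM or more, up to 4 abundant genes of each other list with those called beyond a log2 fold change of 1, and the 5 highest and 5 lowest per class contrast. Others were named after their values were seen. Scrublet (scanpy 1.11.5) gave doublet scores. Its automatic threshold marked 1 cell per library and was not used, and the cells with the highest scores, 434 and 535, were left out only in an alternative. Some genes of the lists are not reported here by name.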

Additional observations from a re-analysis of the deposited data

How the results depend on the processing

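The number of genes called for *PAX6* cells against all other cells was 4192, and 6685 with the library as a block. The other alternatives, which were DESeq2, CPM scaling, no filter on low counts, leaving out cells of high mitochondrial share or high doublet score, all eligible cells, the 300 highest per library and thinned counts, kept the 4 counts of calls within 1.5 times their main value. No count without 1 library could be had, since 1 sum per group leaves no residual degrees of freedom. Of 168 named genes that were tested, none that passed reversed in any alternative or in either library alone, but 121 of 336 single-library fold changes (plain CPM ratios) lay further from the fitted value than 1 SD between the libraries. A call was lost at least once for 16 of them, among them *UBE2C*, *CDC20*, *TFAP2B* and *IRX5*, and gained for 13, 12 of them with the block. The block changed no other call of a named gene. Shares of *PAX6* cells with a UMI, as means of the libraries, moved without thinning from 72.3% to 90.1% for *EYA2*, from 50.2% to 75.8% for *SIX3*, from 20.5% to 35.0% for *KCNAB1*, from 64.8% to 88.8% for *GATA3* and from 27.7% to 57.2% for *SOX2*. Genes under about 1 CPM rest on few UMIs.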
